A study of Mus musculus with 6 samples.

Results

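The E proteins are the helix-loop-helix transcription factors E2A (*Tcf3*), HEB (*Tcf12*) and E2-2 (*Tcf4*), and the Id proteins *Id1*, *Id2* and *Id3* are their inhibitors. The rows of these 6 genes were selected by symbol from the 23183 gene symbols of every library, and all 6 were found. The mRNA-seq data came from CD4+CD8+ double positive (DP) thymocytes, immature T cells, that were sorted from the thymus of C57BL/6 mice at 6 weeks of age. WT mice carried the floxed *Nsrp1* alleles without Cre (Nsrp1 f/f), and NSrp70-cKO mice carried the same alleles with the CD4Cre transgene (Nsrp1 f/f CD4Cre), with 3 libraries for each genotype. CD4Cre is driven by elements of the *Cd4* gene and acts from the late double negative stage onward. Since the WT mice have no Cre, the effect of the transgene and that of the *Nsrp1* deletion cannot be told apart. Whether a library holds 1 mouse or a pool is not given in the sources used here, so that the p-values measure only the spread between these libraries, which may be technical.

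E proteins bind DNA as dimers at short sequences called E-boxes. In DP thymocytes, dimers of E2A and HEB keep the cells at this stage and drive recombination of the T cell receptor alpha chain gene. Id proteins pair with E proteins but lack the basic region that contacts DNA, so that an E protein held by an Id protein cannot bind. T cell receptor signalling during positive selection raises *Id3* through the ERK kinases and Egr factors, which releases cells from the DP stage.

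In this annotation (GENCODE release 21 on GRCm38, the assembly of mm10), *Tcf3* lies on chromosome 10 from 80409514 to 80433647 and *Tcf12* on chromosome 9 from 71842688 to 72111871. *Id1* lies on chromosome 2 from 152736251 to 152737410, *Id2* on chromosome 12 from 25093799 to 25097140 and *Id3* on chromosome 4 from 136143497 to 136145755. The longest coding transcripts of *Tcf3*, *Tcf12* and *Tcf4* have 2950, 6299 and 8577 nucleotides, and those of *Id1*, *Id2* and *Id3* have 1160, 1969 and 1278. The symbols *Tcf3* and *Tcf4* were once also used for *Tcf7l1* and *Tcf7l2*, but the files list those genes in rows of their own. The values sum over all isoforms of a gene, so that the E12 and E47 forms of *Tcf3* and the short and long forms of *Tcf12* were not analysed here.

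Because the same dimers can bind near the E protein and Id genes themselves, the 250 bases before each RefSeq start site were searched on both strands for the E-box, CANNTG. Such windows were on hand for *Tcf3*, *Tcf12*, *Id2* and *Id3*. The motif was found for *Tcf3*, *Id2* and *Tcf12*, and 0 times for *Id3*, whose window lies wholly within annotated GENCODE exons (250 of 250 bases), so that the sequence upstream of the *Id3* gene was not searched. Of all 32817 windows of this length in the RefSeq table, 66.2% hold this motif, so that a match says little, and 13.0% hold the form CAGCTG, which is included in it. The sequences below show 30 bases of GRCm38.p6 around 1 E-box of each gene, in capitals, on the minus strand on which all 3 genes are read.
Tcf3, chr10:80433672-80433701: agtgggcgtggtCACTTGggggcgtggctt
Tcf12, chr9:72112040-72112069: agatgctgccCAGCTGcgtccccgtcgcgg
Id2, chr12:25096271-25096300: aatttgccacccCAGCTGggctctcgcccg
The form CAGCTG stands before the annotated *Tcf12* gene. In *Id2* the same form is 196 bases before the RefSeq start but inside the *Id2* gene as GENCODE annotates it, outside its exons, and 161 bases of this window are exonic. *Tcf3* has another form, CACTTG, at 54 bases before its start. The Egr motif GCGNGGGCG, held by 4.70% of windows, was found in 0 of the windows of these genes.

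The libraries differed in ways that bear on every value below. The authors gave the expression of each gene as FPKM, fragments normalised to transcript length and to the mapped fragments of the library, a level per length that can be compared between genes. The FPKM values summed to 521296 to 531517 in the WT libraries and to 701396 to 850548 in the cKO libraries. From the smallest steps in the values, the depth in units of 1e6 fragments was estimated as 20.7 to 20.8 in WT and as 13.1, 20.7 and 17.3 in cKO 1, 2 and 3. The chi-square between pairs of WT libraries was 1.47 to 1.58 times what counting error alone gives, and between cKO pairs it was 26.3 to 61.6 times, so that the WT libraries stood close to repeats of 1 sample, and results are also given with WT counted as 1 sample. *Nsrp1*, listed under its older symbol *Ccdc55*, had an FPKM of 20.2, 20.7 and 21.1 in WT and of 17.7, 15.8 and 15.0 in cKO. *Xist* was at 69.8 to 72.0 in WT and 4.07 to 5.44 in cKO, and *Ddx3y* of chromosome Y was at 0 in WT and 26.2 to 35.0 in cKO, so that the sex of the mice and the genotype cannot be told apart. In bulk RNA, fewer cells of a type and less RNA per cell cannot be told apart either.

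In NSrp70-cKO DP thymocytes, *Tcf3* mRNA fell by 38.9% while *Tcf12* mRNA rose by 23.1%, so that the summed E protein mRNA had nearly the same deposited FPKM in all libraries but another composition. This equality holds at the deposited scaling: with a common FPKM total, *Tcf3*, *Tcf12* and *Tcf4* had log2 fold changes of -1.26, -0.26 and -0.098. *Tcf4* and the Id genes did not pass the test with all 6 libraries. The 3 Id genes lay above WT in cKO 2 and below WT in cKO 1 and cKO 3. By limma with Benjamini-Hochberg adjustment, 2 of the 6 genes passed 0.05, 1 in each direction, where 65.5% of the 10326 tested genes did, 35.8% higher and 29.8% lower in cKO. In 3 of the 6 genes, the cKO range was clear of the WT range, against 72.5% of tested genes. The plot of FPKM by library shows each value.

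**Figure D1:**
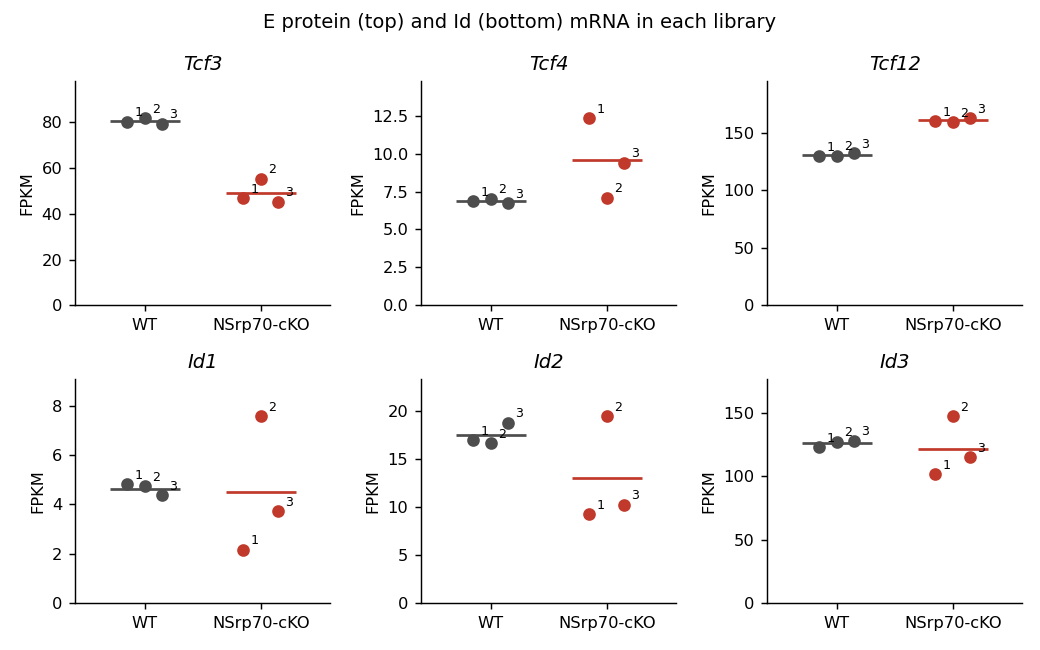
FPKM of the 3 E protein genes (top row) and the 3 Id genes (bottom row) in each WT library (grey) and each NSrp70-cKO library (red), with replicate numbers beside the points and the mean of each genotype as a line. *Tcf3* sits lower and *Tcf12* higher in every cKO library, while the Id genes are highest in cKO 2.

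*Tcf3* encodes E2A, whose loss in thymocytes lets them pass developmental checkpoints. Its FPKM was 80.3, 81.8 and 79.5 in WT 1, 2 and 3 and 46.9, 55.3 and 45.4 in cKO 1, 2 and 3. The genotypes did not overlap, and the highest cKO library was cKO 2. On the log2(FPKM + 1) scale, on which all fold changes are given, the *Tcf3* difference, cKO minus WT, was -0.71 (standard error 0.084, adjusted p = 0.000497 from limma over all tested genes). The exact two-sided permutation test of the FPKM gave p = 0.1, the smallest that 3 libraries against 3 allow. The direction was the same without each library in turn (log2 fold change -0.78 to -0.65), and the adjusted p from limma was 0.0495 with WT counted as 1 sample. When transcript GC content and length were regressed out of every library, the log2 fold change was -0.14 (adjusted p = 0.225 from limma), and the longest coding transcript of *Tcf3* has a GC content of 61.0%, the highest of the 6 genes.

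*Tcf12* encodes HEB, the main partner of E2A in DP thymocytes. Its FPKM was 130.1, 130.1 and 132 in WT and 161, 159.8 and 163 in cKO. Relative to its mean it was the steadiest of the 6 genes within each genotype, and the lowest cKO value exceeded the highest WT value. It rose by 0.30 in log2 (standard error 0.062, adjusted p = 0.00486 from limma), and by 0.34 with the GC and length correction (adjusted p = 0.00454 from limma). The direction rested on the scaling of the libraries. When all libraries were brought to 1 common FPKM total, which moved the median of all tested genes from 0.039 to -0.45, *Tcf12* had -0.26 (adjusted p = 0.0221), and under quantile normalization it had -0.10 (adjusted p = 0.186), both from limma. With WT counted as 1 sample, its adjusted p from limma was 0.269.

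*Tcf4* encodes E2-2, which is best known for plasmacytoid dendritic cells and B cells. It was the lowest E protein gene, with an FPKM of 6.85, 7.02 and 6.71 in WT and of 12.3, 7.10 and 9.40 in cKO. All cKO values lay above the WT values, but cKO 2 did so by a small margin, at 1.03 times the WT mean, against 1.80 and 1.37 times for cKO 1 and cKO 3. In log2 it differed by 0.40 (standard error 0.17, 95% interval -0.0016 to 0.81), and the adjusted p from limma was 0.0732. Without cKO 2 it was 0.59 (adjusted p = 0.00306 from limma), and with a common FPKM total it was -0.098 (adjusted p = 0.577).

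Since E proteins act as dimers that share partners, the composition of the E protein mRNA was examined within each library. The summed FPKM of *Tcf3*, *Tcf4* and *Tcf12* was 217, 219 and 219 in WT and 219.8, 222 and 218 in cKO, and the ranges of the genotypes overlapped. *Tcf3* made up 36.4% to 37.3% of this sum in WT and 21.3%, 24.9% and 20.9% in cKO 1, 2 and 3. The ratio of *Tcf12* to *Tcf3* was 1.62, 1.59 and 1.67 in WT and 3.42, 2.89 and 3.59 in cKO. Such a ratio does not depend on a factor that multiplies a whole library, though quantile normalization alters it, and it did not overlap between the genotypes. Transcript GC content and length were not removed from it, and regressing out both brought the log2 fold change of *Tcf3* closer to 0, as given above. These sums and ratios are descriptions and were not tested.

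**Figure D2:**
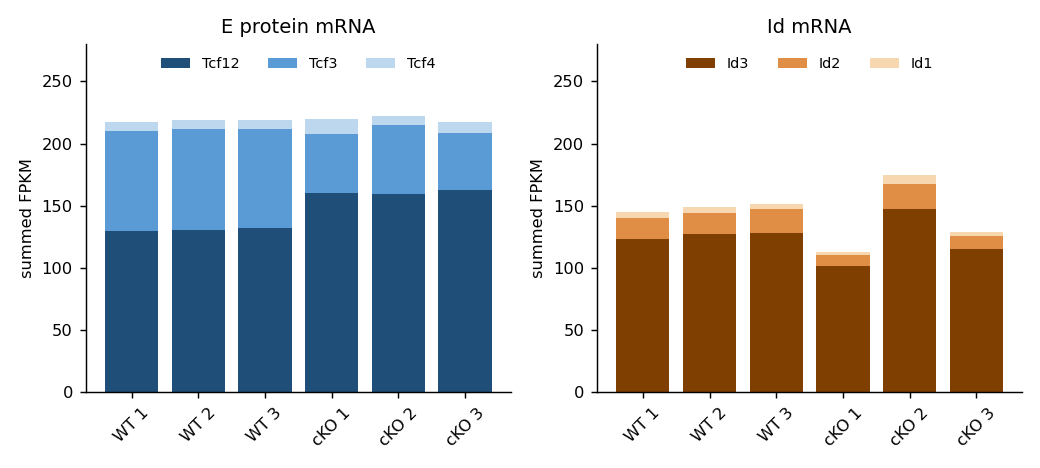
Summed FPKM of the E protein genes (left) and of the Id genes (right) in each library, stacked by gene from 0. The E protein bars reach 217 to 222 in all libraries with less *Tcf3* and more *Tcf12* in cKO, whereas the Id bars reach 145 to 152 in WT and 113, 175 and 129 in cKO 1, 2 and 3.

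*Id3*, the Id gene raised by T cell receptor signals, made up 84.7% to 85.6% of the Id mRNA in WT. Its FPKM was 123, 127 and 128 in WT and 102, 148 and 115 in cKO 1, 2 and 3. The WT values lay between cKO 2 and the other cKO libraries. The log2 fold change was -0.074 (standard error 0.13, 95% interval -0.38 to 0.23), and the adjusted p from limma was 0.637. Without cKO 2 it was -0.21 (adjusted p = 0.0214), and without cKO 1 it was 0.048 (adjusted p = 0.715), both from limma. Under quantile normalization *Id3* had -0.44 (adjusted p = 0.0345 from limma).

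*Id2*, which is needed for innate lymphoid and natural killer cells and acts with *Id3* in maturing T cells, had an FPKM of 17.0, 16.7 and 18.8 in WT and of 9.26, 19.5 and 10.2 in cKO. Thus cKO 1 and cKO 3 had 0.529 and 0.585 times the WT mean, and cKO 2 had 1.11 times. For *Id2* the log2 fold change was -0.47 (standard error 0.24, 95% interval -1.04 to 0.099), and the adjusted p from limma was 0.123. Without cKO 2 it was -0.77 (adjusted p = 0.000192 from limma). With all 6 libraries and the GC and length correction it was -0.81 (adjusted p = 0.0210 from limma).

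*Id1*, a target of BMP signalling in many cell types, was the lowest of the 6 genes in both genotypes. Its FPKM was 4.82, 4.73 and 4.37 in WT and 2.16, 7.59 and 3.72 in cKO. By the estimated depth and the longest coding transcript, these values stand for about 86.9 to 96.4 fragments in the WT libraries and 27.2, 151 and 61.6 in cKO 1, 2 and 3, with a counting error of 19.2% in cKO 1, the least precise. For *Id1* the log2 fold change was -0.16 (standard error 0.32, 95% interval -0.92 to 0.59, adjusted p = 0.673 from limma), and it was -0.54 without cKO 2 (adjusted p = 0.0257) and 0.18 without cKO 1 (adjusted p = 0.548).

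All 3 Id genes had their highest value in cKO 2 and lay below WT in cKO 1 and cKO 3, as the plot of each cKO library against the WT mean shows. Pairs of cKO libraries differ widely over all genes, as given above. *Tcf4* had the opposite order, highest in cKO 1 and lowest in cKO 2. A level in cKO 2 above all WT values, with cKO 1 and cKO 3 below them, was found in 3.90% of the tested genes. The reverse order was found in 2.53%. The first order is the one that the 3 Id genes themselves show, so that their being among these genes is not a separate result. The replicate cKO 2 was nearest to WT among the cKO libraries in 51.4% of the tested genes, and its estimated depth was 20.7, near the 20.7 to 20.8 of WT. The part of depth in the Id values was not tested. The summed Id FPKM was 145, 149 and 152 in WT and 113, 175 and 129 in cKO, and the ratio of summed E protein to summed Id FPKM was 1.50, 1.47 and 1.44 in WT and 1.95, 1.27 and 1.69 in cKO. The ratio was above all WT values in cKO 1 and cKO 3 and below them in cKO 2. A single factor per library does not alter this ratio, and quantile normalization does. The ratio of *Tcf3* to *Id3* was 0.619 to 0.653 in WT and 0.375 to 0.462 in cKO, without overlap at the deposited values, but with the GC and length correction the log2 fold changes of *Tcf3* and *Id3* were alike, at -0.14 each.

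**Figure D3:**
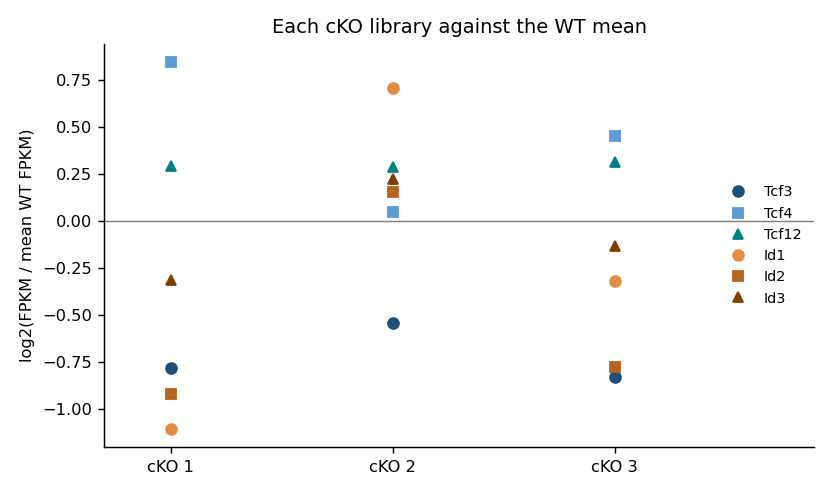
Log2 ratio of the FPKM in each NSrp70-cKO library to the mean of the 3 WT libraries, with 1 point for each of the 6 genes and a line at 0, where cKO equals WT. *Tcf3* stays below and *Tcf12* above 0 in each library, and the 3 Id genes are above 0 in cKO 2 and below it in the other cKO libraries.

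Ordered by level, the WT cells had most *Tcf12* (mean FPKM 131), then *Id3* (126), *Tcf3* (80.5), *Id2* (17.5), *Tcf4* (6.86) and *Id1* (4.64), and no neighbours in this order overlapped between libraries. Among the tested genes, the WT level of *Tcf12* was above 94.6%, that of *Id3* above 94.4% and that of *Tcf3* above 90.1%. In cKO the order of the means was the same, with 161 ± 1.59 for *Tcf12*, 121 ± 23.7 for *Id3*, 49.2 ± 5.34 for *Tcf3*, 13.0 ± 5.65 for *Id2*, 9.61 ± 2.62 for *Tcf4* and 4.49 ± 2.79 for *Id1* (FPKM, mean ± SD, n = 3). There, *Tcf4* overlapped with both *Id2* and *Id1*.

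**Figure D4:**
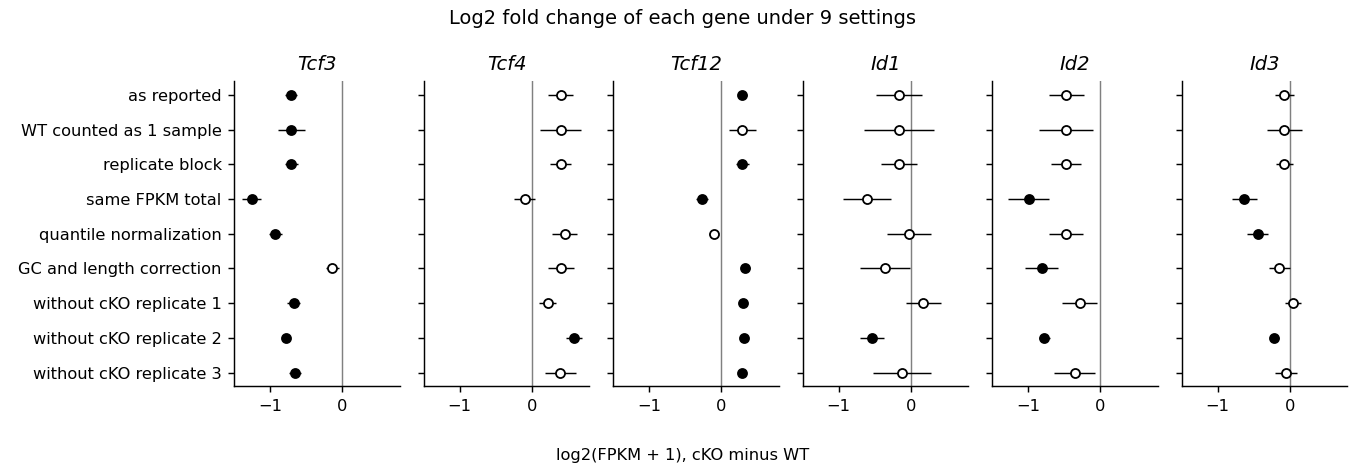
Log2 fold change of each of the 6 genes, cKO minus WT on the log2(FPKM + 1) scale, under 9 settings, with the standard error as a bar and filled points for an adjusted p under 0.05 from limma. *Tcf3* is below 0 under all 9 and is filled in all but the GC and length correction, *Tcf12* changes sign with the scaling, and the Id genes are all filled when cKO 2 is left out.

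Genes known to be switched on by E proteins in thymocytes moved in both directions. Of 12 such genes, all tested, 6 were called higher and 4 lower in cKO, where 35.8% and 29.8% of all tested genes were, with a median log2 fold change of 0.14 against 0.039 over all tested genes. *Dntt*, which adds nucleotides at V(D)J joints, had the largest increase, from 1182, 1181 and 1139 FPKM in WT to 2437, 1804 and 2428 in cKO (log2 fold change 0.91, adjusted p = 0.00199 from limma). *Rag1* and *Rag2*, the V(D)J recombinase, had log2 fold changes of 0.61 and 0.56, and *Cdkn1a*, a cyclin-dependent kinase inhibitor, had 0.60. *Dntt* had 0.094 under quantile normalization (adjusted p = 0.167 from limma). The 2 recombinase genes depended on the scaling as well, as *Rag1* had -0.18 under quantile normalization and *Rag1* and *Rag2* had 0.049 and 0.0026 with the same FPKM total. Quantile normalization left 2 of the 12 genes called higher and 8 lower, and the same FPKM total left 1 and 7.

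Of the lower genes of this list, *Il7r*, *Notch1* and *Hes1* kept their direction with the same FPKM total, quantile normalization and the GC and length correction. *Il7r*, the interleukin-7 receptor alpha chain, fell from 5.86, 6.00 and 5.90 FPKM in WT to 1.22, 1.22 and 1.06 in cKO (log2 fold change -1.67, adjusted p = 4.82e-05 from limma). *Notch1*, the receptor that commits progenitors to the T lineage, fell from 25.8 to 26.3 FPKM in WT to 11.6 to 14.1 in cKO, a log2 fold change of -0.97, or -0.23 with the GC and length correction. *Hes1*, a Notch target, had -0.52. *Il7r* is shared with the list of mature thymocyte markers, whose levels are given below. Of the 2 genes that E proteins hold down, *Gata3* was called lower (log2 fold change -0.41, adjusted p = 0.0427 from limma). The other, *Cdk6*, named after its value was seen, had -0.21 (adjusted p = 0.0939). The *Gata3* call was lost under quantile normalization (adjusted p = 0.0536) and without the filter on low values (adjusted p = 0.0840). Leaving out any 1 WT library, cKO 1 or cKO 3 also lost it (adjusted p of 0.0687 to 0.104). It held with the GC and length correction (adjusted p = 0.0482) and with the same FPKM total (adjusted p = 0.0045), all from limma.

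Most of the genes that raise *Id3* after T cell receptor signalling fell in cKO. Of 6 such genes, 5 were called lower and 0 higher (median log2 fold change -0.68), where 29.8% of all tested genes were called lower. As for every list here, these calls count WT as 3 samples, although its libraries stood close to repeats of 1. Far fewer listed genes were called with WT counted as 1 sample, as given below over all lists. The other, *Elk1*, named after its value was seen, had -0.096 (adjusted p = 0.451 from limma) with overlapping genotypes, and 0.038 under quantile normalization. *Egr1*, the early factor that acts on *Id3*, had 24.8, 24.2 and 25.1 FPKM in WT and 10.8, 7.58 and 8.73 in cKO 1, 2 and 3 (log2 fold change -1.37, adjusted p = 0.000191 from limma). The lowest *Egr1* was thus in cKO 2, the library with the highest *Id3*. *Egr3* and *Egr2*, relatives of *Egr1*, had log2 fold changes of -0.78 and -0.76, and *Srf*, which drives immediate early genes with its Elk partners, had -0.60. Since *Egr3* reached an FPKM of 1 only in the WT libraries, it entered the test through WT alone. Its lower call, which counts among the 5, is therefore not separate support. With the GC and length correction, 4 genes were called lower, *Egr1* had -0.78 (adjusted p = 0.00147) and *Srf* had -0.082 (adjusted p = 0.412 from limma).

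Of 5 other genes that respond to positive selection, 4 were called lower and 0 higher (median log2 fold change -0.71), against 29.8% called lower among all tested genes. The other, *Cd5*, named after its value was seen, had -0.058 (adjusted p = 0.637 from limma), and with the GC and length correction it was called higher, at 0.36 (adjusted p = 0.0154). *Nr4a1*, an immediate response gene of the T cell receptor, had 80.1, 80.5 and 82.3 FPKM in WT and 27.7, 54.1 and 27.0 in cKO (log2 fold change -1.21, adjusted p = 0.00400 from limma). Here cKO 2 was nearer to WT, but still below it. *Nr4a3* of the same family had -1.05, *Itm2a* -0.71 and the activation marker *Cd69* -0.41. Of the BMP and SMAD genes that act on *Id1*, 4 of 6 were tested, and 1 was called lower, *Smad1* (log2 fold change -0.33, adjusted p = 0.0282 from limma). This call was lost with the GC and length correction (-0.22, adjusted p = 0.111), without the filter on low values (adjusted p = 0.0580) and without each WT library or cKO 3 (adjusted p of 0.0621 to 0.0998, all from limma). The other 2 had a mean FPKM under 1 in both genotypes.

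Most partners through which E proteins bind other complexes were near 0 or lower in cKO. Of 9 helix-loop-helix and LIM partners, 7 were not tested because of low values, and 2 of these were at 0 in every library. *Ldb1*, the scaffold that joins LIM and helix-loop-helix factors, fell from 193 to 199 FPKM in WT to 106 to 132 in cKO (log2 fold change -0.71, adjusted p = 0.000705 from limma), and the GC and length correction gave -0.22 (adjusted p = 0.0506). Of the 7 corepressors and coactivators, 6 were tested, 5 were called lower and 0 higher (29.8% lower among all tested genes), with a median log2 fold change of -0.60. *Cbfa2t3*, which encodes the corepressor ETO2, fell from 16.5, 16.8 and 17.8 FPKM to 8.88, 7.45 and 7.93 (log2 fold change -0.99, adjusted p = 0.000162 from limma). The acetyltransferase genes *Crebbp*, *Kat2a* and *Kat2b* had log2 fold changes of -0.99, -0.63 and -0.57. With the GC and length correction, *Cbfa2t3* (-0.37), *Crebbp* (-0.63) and *Kat2b* (-0.53) were called lower, with an adjusted p from limma of 0.00434, 0.00147 and 0.0228, and *Kat2a* was not (-0.15, adjusted p = 0.0949). *Kat2b* was no longer called without any 1 WT library, cKO 1 or cKO 3 (adjusted p of 0.0529 to 0.0806 from limma).

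Of the 5 genes that set the stability of Id and E proteins, 3 rose and 2 fell. *Skp2*, a ubiquitin ligase subunit that also promotes cell cycle entry, rose from 7.12, 6.94 and 7.08 FPKM to 15.1, 15.4 and 15.4 (log2 fold change 1.02, adjusted p = 8.63e-05 from limma) and was also higher with the same FPKM total and under quantile normalization. *Cdc20*, an activator of the anaphase promoting complex, had 0.52, and *Usp1*, which removes ubiquitin from Id proteins, had 0.48, and both were slightly negative with the same FPKM total, at -0.030 and -0.070. *Fzr1*, the other activator of this complex, had -0.55, and *Stub1*, a ubiquitin ligase, had -0.34, but with the GC and length correction these had 0.015 and 0.0031. Over the 8 lists, which hold 52 genes, 42 were tested. Of these, 9 were called higher and 23 lower, with *Egr3* tested through WT alone, against 35.8% and 29.8% of all tested genes. With WT counted as 1 sample 1 was higher and 7 lower, where 15.9% of all tested genes were called.

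**Figure D5:**
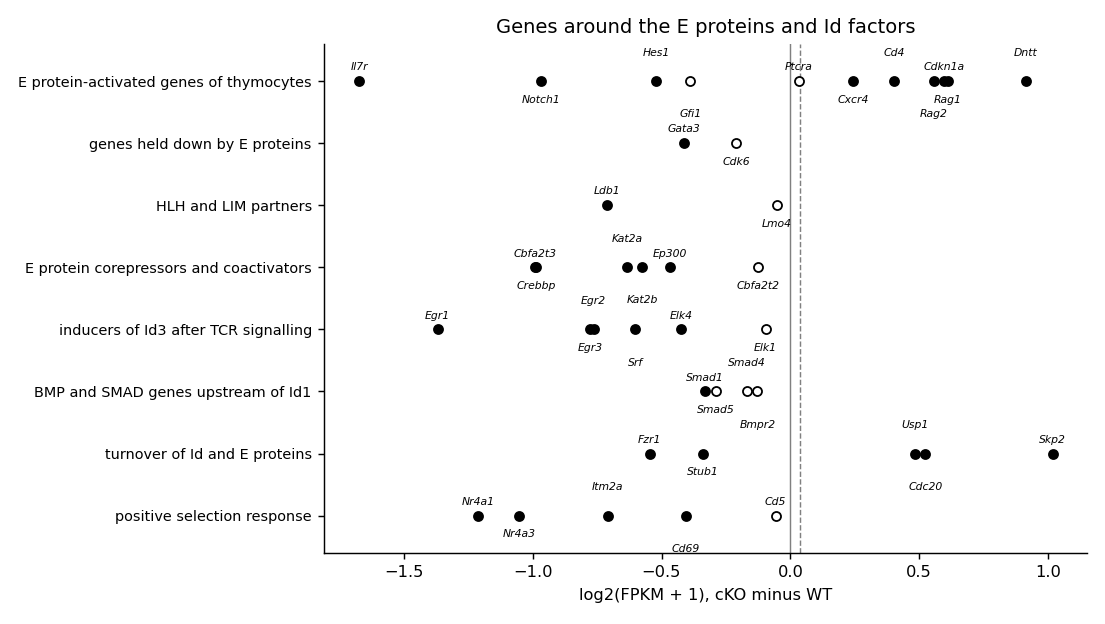
Log2 fold change, cKO minus WT on the log2(FPKM + 1) scale, of the tested genes of each of the 8 lists, with 1 E protein-activated gene not drawn, filled where the adjusted p from limma is under 0.05, with a solid line at 0 and a dashed line at the median of all tested genes (0.039). The inducers of *Id3*, the positive selection genes and the corepressors and coactivators all lie to the left of 0, with 5 of 6, 4 of 5 and 5 of 6 filled, and the E protein-activated genes lie on both sides. *Egr3*, among the filled inducers, entered the test through WT alone.

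The sorted cells carried the markers of DP thymocytes, and other cell types were also checked, since E protein and Id levels differ between cell types. The 11 DP markers, which include *Rag1*, *Rag2* and *Dntt* of the list above, were all tested. Of these, 7 were called higher and 3 lower in cKO, the latter including *Cd1d1* and *Arpp21*, where 35.8% and 29.8% of all tested genes were. The same shares are the background for the marker counts of the other cell types below. The summed FPKM of the DP markers was 5319 to 5407 in WT and 7246 to 9377 in cKO. The FPKM totals of the cKO libraries were larger as well, as given above, so that this sum and those below depend on the scaling. Of 8 markers of mature single positive cells, 7 were tested, 6 were lower and 1 was higher, and *Ccr7*, the receptor that guides these cells to the medulla, was at 15.1 to 16.2 FPKM in WT and 1.16 to 2.50 in cKO. Among the lower ones, *S1pr1* and *Zbtb7b* reached an FPKM of 1 only in WT. They entered the test through WT alone, so that their calls are not separate support. The sum of the mature markers was 120.4 to 123 in WT and 100.1 to 122 in cKO. Of 7 double negative markers 2 were tested, with 1 lower and a sum of 10.4 to 11.0 in WT and 7.43 to 9.46 in cKO.

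For *Tcf4*, the markers of plasmacytoid dendritic cells and B cells matter most. Of the 6 plasmacytoid markers, 2 were tested and 0 were called, and the others were below an FPKM of 1 in every library. *Siglech* had a mean of 0.153 in WT and 0.296 in cKO, *Spib* of 0.364 and 0.151, *Runx2* of 0.679 and 0.25, and *Flt3* of 0.143 and 0.0940, with 1 mean higher and 3 lower in cKO. The sum over all 6, 275 to 279.8 in WT and 281 to 359 in cKO, was nearly all *Ccr9*, which DP thymocytes express. Of the 6 B cell markers, only *Cd79b* was tested, and it was called higher, with a summed FPKM of 22.8 to 24.2 in WT and 26.7 to 39.4 in cKO. *Cd79b* was highest in cKO 3, at 38.3, followed by cKO 1 at 35.1 and cKO 2 at 25.6. Its part in the *Tcf4* values was not tested.

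For *Id2*, natural killer and innate-like cells are the usual sources. Of 7 natural killer markers 4 were tested, 2 higher and 2 lower, with a sum of 64.3 to 70.3 in WT and 83.7 to 113 in cKO, most of it *Gzma*, and *Ncr1* was at 0 to 0.185 in all libraries. Of 6 innate-like markers 2 were tested and both were lower, with a sum of 254 to 261 in WT and 175 to 236 in cKO. Nearly all of this sum came from 1 gene that is also on the list of DP markers. The other tested gene, *Il2rb*, is also 1 of the lower natural killer markers. It reached an FPKM of 1 only in WT and so entered the test through WT alone. These values therefore say little about innate-like cells. Erythroid transcripts were higher in cKO, 2 of 2 tested, with a sum of 1.98 to 2.73 in WT and of 12.4 to 26.6 in cKO, where cKO 2 was the lowest. Of these 2, *Hba-a1* passed the filter on low values only through the cKO libraries, so that its call is not separate support. Of 6 myeloid markers 3 were tested, with 1 lower and a sum of 18.5 to 20.1 in WT and 10.4 to 14.3 in cKO, and of 5 thymic epithelial markers 1 was tested and 0 called, with *Foxn1* and *Krt5* at 0 in every library. The part of these cells in the E protein and Id values was not tested.

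The genes with the pattern most like each member were sought by Pearson's r of the log2 values over the 6 libraries, as a description. These libraries form 2 genotypes, and r mostly follows that split and the differences among the cKO libraries. For *Tcf3*, the nearest were *Nfrkb*, *Rfng* and *Als2cl* (r of 1.00 each), and for *Tcf12* *Ncapg*, *Tceb3* and *Tbl1xr1* (1.00, 1.00 and 0.999). Values of r above 0.95 were common for both, with 1595 and 1916 of the tested genes. For *Tcf4* the nearest were *Ddx27*, *Fkbp8* and *Chaf1a* (0.998, 0.998 and 0.997). Fewer genes were like the Id genes, with 75 above 0.95 for *Id1*, 201 for *Id2* and 76 for *Id3*. The nearest to *Id3* was *Arntl*, which encodes the clock factor BMAL1, at 41.1, 42.7 and 42.9 FPKM in WT and 34.1, 48.8 and 38.0 in cKO (r = 0.998), followed by *Lrrc57* and *5430416N02Rik*. *Slc30a9*, *Pex10* and *Krit1* were nearest to *Id2*, and *Tapt1*, *Ireb2* and *3110043O21Rik* to *Id1* (r of 0.990 to 0.992).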

How the data were processed

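The authors prepared poly(A)-enriched, directional libraries with removal of ribosomal RNA, trimmed the paired-end reads (fastx trimmer), aligned them to the mm10 genome by TopHat and deposited the FPKM values from Cufflinks, 1 per gene symbol and library. Versions of the trimming, alignment and FPKM tools and the gene annotation are not given in the sources used here. The genotype and replicate number of each library were read from its label. FPKM values were divided by median-of-ratios size factors (1.00 to 1.01), and the 10326 genes that reached an FPKM of 1 in 3 or more libraries were fitted as log2(FPKM + 1) by genotype with limma 3.58.1 (R 4.3.3, eBayes with a trend), with Benjamini-Hochberg adjustment over all tested genes and a threshold of 0.05. The study tested gene counts with DESeq2, which FPKM values are not.

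Of 23183 symbols, 22110 were matched to GENCODE directly and 646 through RefSeq synonyms, 38 stood for more than 1 gene, and 389 were unmatched. Sequencing depth was estimated from steps of 1 fragment at 2605 single-transcript genes, with an assumed fragment length of 200, and counting errors cover counting only. For the GC and length correction, each library was regressed on splines of both (5 degrees of freedom per spline), which covered 99.2% of tested genes. Promoter windows were those of RefSeq on GRCm38.p6. Scripts ran in Python 3.11.15 (pandas 2.3.3, numpy 2.4.6, matplotlib 3.10.9), and the fit was tested on simulated data.

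The 6 genes and the gene lists were chosen with earlier results of these data known. Named genes were the 6 members, *Nsrp1*, up to 4 genes per direction and list by size among those past the threshold, and the 3 genes most like each member. Leaving out chromosomes X and Y was chosen after seeing the data. Some listed genes and 1 sequence are counted but not reported here.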

Additional observations from a re-analysis of the deposited data

How the results depend on the processing

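When all libraries had a common FPKM total, *Tcf4* had a log2 fold change of -0.098 and *Tcf12* of -0.26, both reversed, *Id2* of -0.99 and *Id3* of -0.63, both then past the threshold, and 903 genes were called higher and 6182 lower in cKO, with 2 listed genes higher. Under quantile normalization *Tcf12* was at -0.10, *Id3* was at -0.44 and past the threshold, and 5 listed genes were higher. With the WT libraries counted as 1 sample, *Tcf12* (0.30) was no longer past the threshold, and 739 genes were called higher and 902 lower (3693 and 3073 with all WT libraries), with 1 listed gene higher and 7 lower (9 and 23). The GC and length correction brought *Tcf3* to -0.14, no longer past the threshold, and *Id2* to -0.81, past it. The causes were not tested.

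With each library left out in turn, the log2 fold change ranged from -0.78 to -0.65 for *Tcf3*, from 0.23 to 0.59 for *Tcf4*, from 0.29 to 0.31 for *Tcf12*, from -0.54 to 0.18 for *Id1*, from -0.77 to -0.28 for *Id2* and from -0.21 to 0.048 for *Id3*. Without cKO 2, *Tcf4* and the 3 Id genes passed the threshold, and without cKO 1, *Id1* and *Id3* changed sign. Of all genes, 3071 to 4111 were then called higher and 2324 to 3526 lower, and of the listed genes 7 to 10 and 16 to 27. The deviations of same-numbered WT and cKO libraries had r of -0.022, 0.038 and 0.031. The chi-square between WT libraries was only 1.47 to 1.58 times that of counting error, which leaves little else to correlate. This check therefore cannot decide whether the numbers pair the libraries. A replicate block called 6467 genes in place of 6766 and left the 6 genes on their side of the threshold, with *Tcf3* at -0.71 (adjusted p = 0.00129 from limma) and *Tcf12* at 0.30 (adjusted p = 0.0290). A pseudocount of 0.1, no scaling, no trend, no filter, and leaving out chromosomes X and Y changed none of these calls, nor did the stricter filter of 5, under which *Id1* could not be fitted.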
